A study of Mus musculus with 30 samples.

Results

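The 7 genes described here are the ligands, receptors and first intracellular carriers of insulin-like growth factor (IGF) signalling. They were taken by symbol from the count tables, and all 7 symbols were found once among the 53278 genes of the subventricular zone (SVZ) table and once among the 50508 genes of the striatum table. Igf1 and Igf2 encode the secreted ligands. Igf1r encodes the receptor tyrosine kinase that both ligands activate, Insr the related insulin receptor, and Igf2r a transporting receptor that takes up IGF-2 for degradation. Irs1 and Irs2 encode insulin receptor substrates, docking proteins that the activated receptors phosphorylate and that pass the signal to PI3K and AKT. In the adult brain IGF-1 is known to support neuronal survival and synaptic function, and IGF-2 is known as a product of the choroid plexus and the meninges.

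RNA was sequenced from both tissues of the same 15 C57Bl/6 mice, given in the study's methods as adult, 6 to 8 weeks old and of both sexes. NestinTK+ mice carry a viral thymidine kinase driven by Nestin regulatory sequence of the rat, which makes dividing Nestin-expressing precursors sensitive to ganciclovir (GCV), and NestinTK- mice are their wild-type littermates. A subcutaneous minipump delivered GCV or PBS for 4 weeks, so that every control group shared the implant and differed from the ablated group in genotype, drug or both. The ablated group was NestinTK+GCV+ (5 mice, A1 to A5), and the controls were NestinTK+PBS+ (4 mice, T1 to T4), NestinTK-GCV+ (3 mice, G1 to G3) and NestinTK-PBS+ (3 mice, P1 to P3), with 1 library per mouse and tissue and the same mouse under the same name in both.

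SVZ libraries held 8360810 to 21056005 counts and striatum libraries 2626962 to 4693441. The labels call the SVZ samples neural precursor cells, yet these were dissected tissue: the 8 neuroblast markers summed to 201 to 641 CPM (counts per 1000000 of the scaled library) and the 7 markers of medium spiny neurons, the main striatal cell type, to 3025 to 10050. The 7 markers of dividing cells summed to 8.68 to 33.1 CPM in the ablated SVZ and to 35.1 to 155 in the control SVZ. Libraries that stood apart were the SVZ of T1, P1 and P2, where 8 choroid plexus markers summed to 46650 to 103100 CPM against at most 791 elsewhere, and the striatum of T4, where medium spiny neuron markers summed to 3890 CPM against 7533 to 10320 and choroid plexus markers to 1443 against at most 54.1. In such bulk samples, fewer cells of a type and less RNA per cell cannot be told apart. Library numbers ran up to 10 in GCV-treated mice and from 11 in PBS-treated mice, so the order of numbering and the drug cannot be told apart.

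On the GRCm38 (mm10) build, Igf1 lies at chr10:87858265-87937042 on the plus strand and Igf1r at chr7:67952827-68233668 on the plus strand. On the minus strand lie Igf2 at chr7:142650766-142666816, Igf2r at chr17:12682406-12769664, Insr at chr8:3122061-3279617, Irs1 at chr1:82233101-82291416 and Irs2 at chr8:10984681-11008458. At its 3′ end, 2822 exon bases of Irs1 are also annotated to Gm9747 on the opposite strand. Gm9747 had 0 counts in all 30 libraries, and the strand setting of the counting was not stated, so that reads falling there may not have been assigned to either gene and the level of Irs1 is uncertain, above all in the striatum libraries that read the 3′ end. In the annotation release used for these positions, which is later than that of the counts, Igf2 shares 3596 exon bases with Gm49394. Gm49394 had no row among the counts of either tissue, and the Igf2 row may therefore hold reads of both.

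The receptors and Irs2 were the abundant members, and the ligands and Irs1 were scarce. Per kilobase of exon in the SVZ, Irs2 was highest with 13.8 ± 4.51 CPM (SD, n = 15). Igf1r followed with 5.67 ± 1.54, Igf2r with 4.90 ± 2.76 and Insr with 3.06 ± 1.01 on that scale, and neighbours among these receptors differed by less than the larger of their SDs. Igf1 had 0.486 ± 0.474, Igf2 0.361 ± 0.754 and Irs1 0.334 ± 0.483 CPM per kilobase, and the order of these low genes was not resolved by their spread. Among 16023 genes with a length, Irs2 ranked at the 80.6th percentile and Irs1 at the 6.76th. In the striatum, where 1 read stands for 1 transcript end and no length correction is needed, Igf1r had 76.8 ± 13.8 CPM, Irs2 67.2 ± 19.2, Insr 35.2 ± 6.95, Igf2r 34.3 ± 6.43, Igf2 14.1 ± 5.76, Irs1 9.15 ± 6.27 and Igf1 3.14 ± 1.06 (SD, n = 15). The pairs Igf1r and Irs2, and Insr and Igf2r, differed by less than their spread, while Igf1r and Irs2 lay apart from Insr and Igf2r by more than 1 SD.

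The study's question was what the loss of SVZ precursors changes in the niche and in the neighbouring striatum. In these counts none of the 7 members was shown to differ in either tissue between the ablated mice and the pooled controls. By in situ hybridization and RT-PCR, the study itself reported that Igf1r rose in the striatum after ablation. It also reported less IGF-1 in the SVZ of ablated mice. Those are other measures than the counts used here. With edgeR, 0 of 7 passed the study's thresholds (an unadjusted p no higher than 0.01 together with a difference of 2-fold or more) in the SVZ, where 1.59% of all 16375 genes tested did, and 0 of 7 in the striatum, where 0.694% of 15419 did. At an unadjusted p under 0.05 the count was also 0 in both tissues, where 9.81% and 10.5% of all genes lay. DESeq2 and limma-voom called 0 as well, and DESeq2 placed 1 member, striatal Irs1, under 0.05. The intervals show how far this goes: the 95% interval of the difference lay within 2-fold for 6 members in the striatum and for Igf1r, Insr and Irs2 in the SVZ, whereas for Igf1, Igf2, Igf2r and Irs1 in the SVZ and Irs1 in the striatum a 2-fold difference was not excluded.

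**Figure D1:**
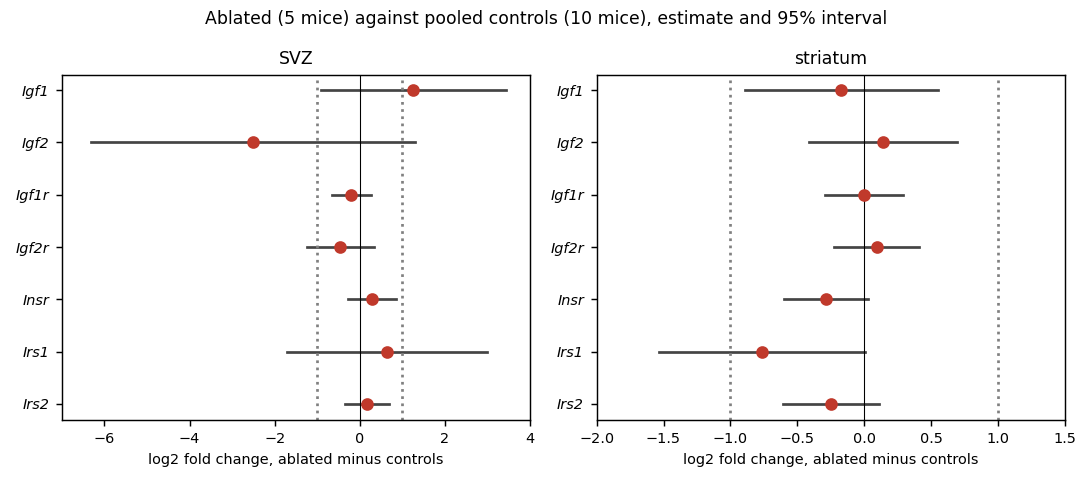
Log2 fold change of each member in the ablated mice (5) against the pooled controls (10), with its 95% interval, in the SVZ (left) and striatum (right, narrower axis). Dotted lines mark 2-fold, and every interval includes 0.

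Igf1, the ligand for which the receptor is named, was sparse in the SVZ and ran from 0 to 199 counts. The ablated mice had 10.1, 6.28, 0, 5.56 and 17.4 CPM (A1 to A5). The controls had 2.66, 4.69, 2.19 and 2.17 CPM in T1 to T4, 0, 4.85 and 5.16 in G1 to G3, and 1.53, 9.59 and 0.110 in P1 to P3. Of the ablated values, 4 lay above the control median of 2.43 CPM, and A1 and A5 lay above the highest control (9.59, P2), but A3 was at 0 counts and the groups overlapped in part. The log2 difference was 1.25 (SE 1.04, 95% interval -0.92 to 3.42, adjusted p = 0.765 by edgeR). A count of 0 in A3 allows up to 0.358 CPM, and 0 in G1 up to 0.220, for counting error only. In the striatum Igf1 had 6 to 22 counts per library, 2.88 ± 0.527 CPM (SD, n = 5) in the ablated mice and 3.26 ± 1.25 (SD, n = 10) in the controls, with a log2 difference of -0.17 (SE 0.35, adjusted p = 0.915 by edgeR). There, all 4 NestinTK+PBS+ mice (3.32 to 5.87 CPM) lay above all 3 NestinTK-PBS+ mice (1.74 to 2.90 CPM), a separation in that direction which 2.99% of all genes showed, and the log2 difference of 0.80 (SE 0.46) had an unadjusted p of 0.0959 and an adjusted p of 0.858 by edgeR.

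Igf2 counts in the SVZ came mostly from 3 control libraries. T1 held 194 counts, P2 held 200 and P1 held 45, together 93.6% of the 469 counts of all 15 libraries although these 3 hold 27.0% of all SVZ counts. Counts were 0, 10, 0, 9 and 1 in the ablated mice (A1 to A5), T2, T3 and T4 had 4, 3 and 0, the NestinTK-GCV+ mice had 0, 0 and 2, and P3 had 1. All ablated libraries lay below T1, P1 and P2. A2 (1.39 CPM) and A4 (0.962 CPM) lay above the 7 remaining controls, which reached at most 0.298 CPM in T2, and A1, A3 and A5 lay among them. The fitted log2 difference of ablated against controls was -2.50 (SE 1.82, 95% interval -6.32 to 1.31, adjusted p = 0.715 by edgeR). Without T1, P1 and P2 the gene fell under the filter on low counts and could not be fitted, and the raw sums turned the other way, with 20 counts among 43665248 for the 5 ablated mice and 10 counts among 85806487 for the other 7 controls (ratio 3.93, exact 95% interval 1.76 to 9.40, counting error only). Within the wild-type mice, GCV-treated against PBS-treated, the 2 counts of the NestinTK-GCV+ group against 246 gave a ratio of 0.0101 (exact 95% interval 0.00121 to 0.0368, counting error only), and the fit gave an unadjusted p of 0.0401 and an adjusted p of 0.646 by edgeR.

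**Figure D2:**
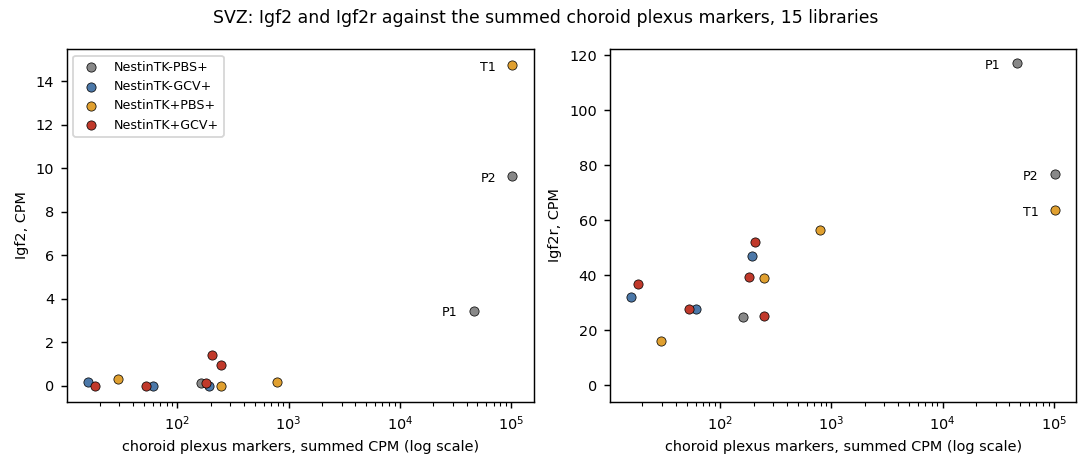
SVZ level of Igf2 (left) and Igf2r (right) in CPM for each of the 15 libraries against the summed CPM of 8 choroid plexus markers (log axis), coloured by group. P1, P2 and T1 lie at the right of both panels, at 46650 to 103100 CPM of markers, and hold the 3 highest values of each gene.

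The 3 libraries with the most Igf2 were the 3 with the most choroid plexus transcripts. T3, next in the choroid plexus sum with 791 CPM, had 3 counts of Igf2. Their share of counts from Ttr, which encodes the transthyretin that choroid plexus secretes, was 9.83% in T1, 9.88% in P2 and 4.49% in P1, against at most 0.0789% in the other 12. Over the 15 libraries the Pearson correlation of Igf2 (log2 CPM) with the log2 of the summed choroid plexus markers was 0.871 and with that of 8 meningeal fibroblast markers 0.741, as a description in which 3 libraries carry the relation. Meningeal markers summed to 48.9 to 76.0 CPM in the same 3 libraries and to 2.64 to 35.6 in the others. Ins2, the insulin gene beside Igf2, had 120 counts in T1 and 213 in P2, 14 in T2, 5 in P1 and 0 in the other 11. Ins2 was at 0 in all 5 ablated libraries, and also in the controls T3, T4, G1, G2, G3 and P3. Allowing 3 counts over the ablated group, the pooled counts were at least 38.3-fold lower than in the controls, for counting error only. Without T1, P1 and P2 this bound was 2.37-fold and rested on T2 alone. Neither bound covers the spread between mice. The part of choroid plexus tissue in the Igf2 counts was not tested.

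In the striatum Igf2 was detected in every library, with 30 to 109 counts, and varied between mice. Igf2 stood at 11.3, 16.3, 24.05, 13.3 and 9.97 CPM in the ablated mice (A1 to A5), and the controls ran from 7.26 to 29.1 with a median of 12.5. The highest value was that of T4, the library with the most choroid plexus and the fewest medium spiny neuron markers. The log2 difference was 0.14 (SE 0.27, adjusted p = 0.909 by edgeR). The striatal levels did not follow those of the SVZ in the same mice (Pearson r = 0.0283 over 15 mice).

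Among the receptors, Igf1r showed the clearest order of groups, in the striatum, where the NestinTK-GCV+ mice lay lowest. Against the pooled controls the ablated mice had a log2 difference of -0.00058 there (SE 0.14, adjusted p = 0.999 by edgeR). The NestinTK-PBS+ mice had 87.7, 90.5 and 82.3 CPM (P1 to P3). The NestinTK-GCV+ mice had 49.8, 60.8 and 66.1 CPM (G1 to G3). In the ablated mice the values were 81.8, 80.2, 80.3, 66.4 and 75.4 CPM (A1 to A5), and in the NestinTK+PBS+ mice 73.2, 74.6, 73.6 and 109 CPM (T1 to T4). All wild-type mice given GCV thus lay below all other mice, A4 being the nearest (66.4 against 66.1 in G3). The share of all genes that place these mice below all others was not counted, so how unusual this order is was not tested. The shares that follow are for pairs of groups only. Between wild-type groups the log2 difference of GCV against PBS was -0.56 (SE 0.17, 95% interval -0.91 to -0.20, unadjusted p = 0.00342, adjusted p = 0.0882 by edgeR), short of the 2-fold threshold, and such a separation downward was shown by 10.2% of all genes. Under GCV, transgenic mice exceeded wild-type mice by 0.38 (SE 0.16, 95% interval 0.056 to 0.70, unadjusted p = 0.0233, adjusted p = 0.193 by edgeR), with 7.13% of genes separating upward. These comparisons share the NestinTK-GCV+ mice, so that a difference tied to ablation and one tied to those mice cannot be told apart.

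**Figure D3:**
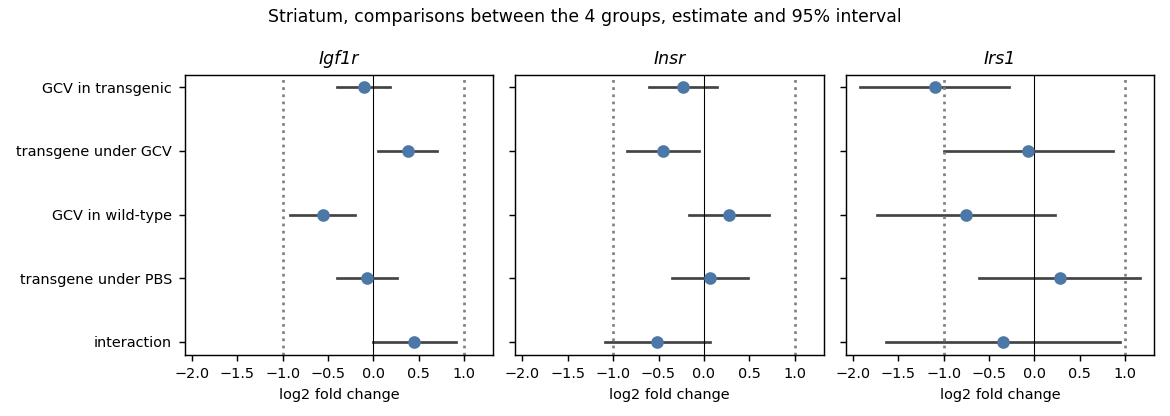
Striatum log2 fold changes with 95% intervals for Igf1r, Insr and Irs1 in the 5 comparisons between groups. For Igf1r the interval lies below 0 for GCV in wild-type mice and above 0 for the transgene under GCV; dotted lines mark 2-fold.

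In the NestinTK+ mice GCV left Igf1r with a log2 difference of -0.11 (SE 0.14, 95% interval -0.40 to 0.19). The interaction, which asks whether the drug difference depended on genotype, was 0.45 (SE 0.22, 95% interval -0.0085 to 0.91, unadjusted p = 0.0541, adjusted p = 0.344 by edgeR), so the genotypes were not shown to differ. It was 0.62 without T4 (unadjusted p = 0.00477) and 0.35 without G1 (unadjusted p = 0.157). Without T4 the wild-type difference of Igf1r reached an adjusted p of 0.0264 by edgeR, and DESeq2 on all libraries gave an adjusted p of 0.0408. Without G1 the same difference was -0.45 with an adjusted p of 0.253 by edgeR. Without T1, P1 and P2, the mice whose SVZ held the most choroid plexus transcripts, it was -0.48, a value that compares 3 mice with P3 alone and so has no spread of its own in the PBS-treated arm.

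Marker lists also differed between the striatum groups, and 1 of them, the ependymal list, was lowest in the same 3 mice as Igf1r. The 6 ependymal markers, genes of the ciliated cells lining the ventricle, summed to 9.51 to 14.4 CPM in the NestinTK-GCV+ mice, 29.4 to 50.0 in the NestinTK-PBS+ mice, 26.3 to 47.9 in the ablated mice and 27.6 to 58.2 in the NestinTK+PBS+ mice. The 6 oligodendrocyte markers summed to 2081 to 2801, 2959 to 4448, 1950 to 2566 and 2576 to 5530 CPM in the same order, so that they were lower with GCV in wild-type mice, as Igf1r was, but not higher in the ablated than in the NestinTK-GCV+ mice. The 5 cortical excitatory neuron markers summed to 7.61, 79.1 and 615 CPM in G1 to G3, 6.98 to 10.7 in the NestinTK-PBS+ mice, 13.4 to 133.5 in the ablated mice and 11.8 to 359.5 in the NestinTK+PBS+ mice. For GCV in wild-type mice 4 of these 5 were called higher with a median log2 difference of 4.23. In the same comparison 3 of the 6 ependymal markers (median -1.65) and 1 of the 6 oligodendrocyte markers (median -0.37) were called lower. Of all genes tested, 2.46% were called there in either direction. The correlation of Igf1r with the ependymal sum over 15 libraries, both as log2, was 0.746, with the choroid plexus sum 0.684, with the medium spiny neuron sum -0.589 and with the cortical excitatory neuron sum -0.0725. T4, the highest library for Igf1r (109 CPM), was extreme in the choroid plexus and medium spiny neuron sums and had the highest ependymal sum (58.2 CPM). The part of tissue composition in the Igf1r difference was not tested. All 3 NestinTK-PBS+ mice, G1 and T3 carry mouse numbers of 1 series and the other mice of another, and within the first G1 had 49.8 CPM, T3 73.6 and the NestinTK-PBS+ mice 82.3 to 90.5.

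**Figure D4:**
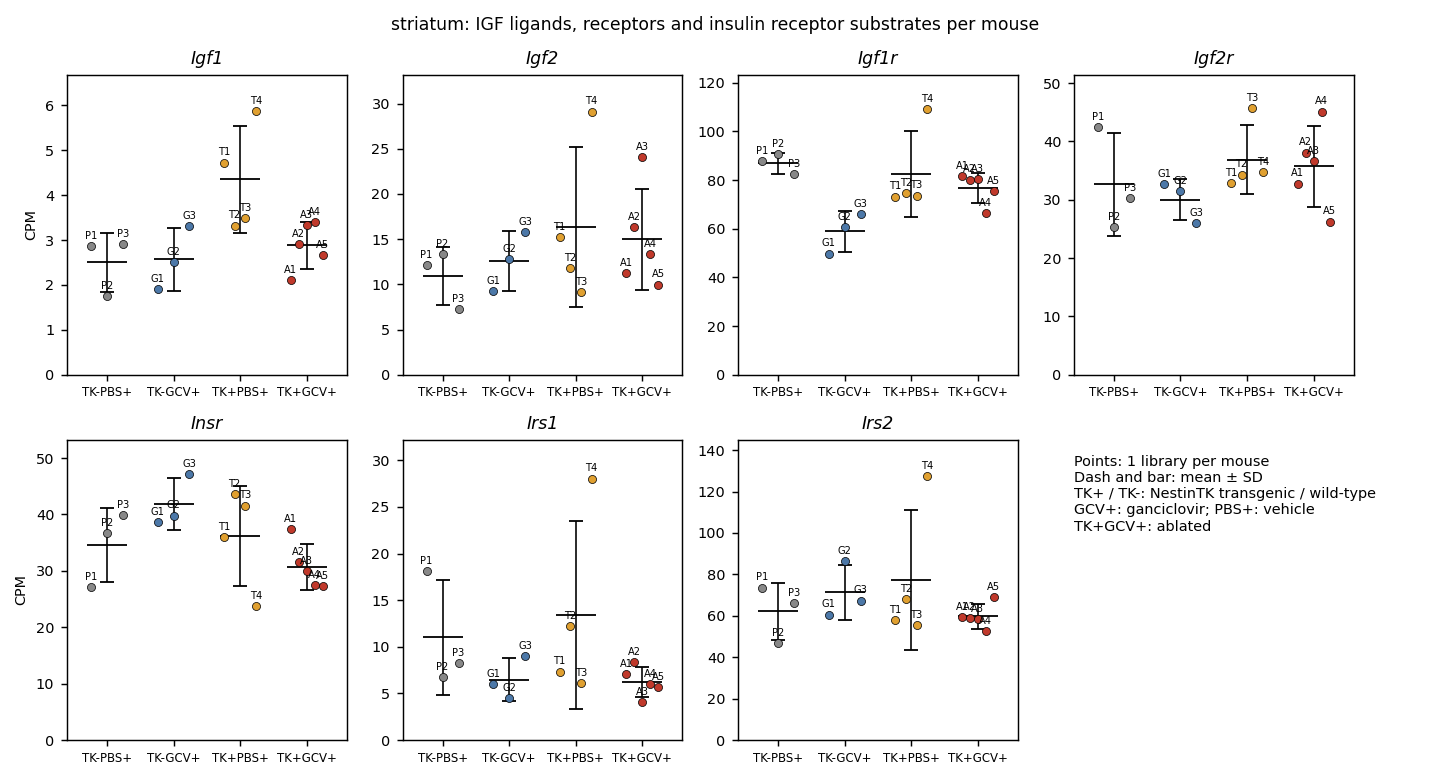
Striatum level in CPM of the 7 members for each mouse (points, named), with group mean and SD (dash and bar), in the 4 groups. Igf1r is lowest in the 3 NestinTK-GCV+ mice (49.8 to 66.1), and T4 is the highest point for Igf1, Igf2, Igf1r, Irs1 and Irs2 and the lowest for Insr.

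In the SVZ Igf1r ran from 56.6 to 136 CPM. It was 86.8 ± 23.3 CPM (SD, n = 5) in the ablated mice and 99.5 ± 27.3 (SD, n = 10) in the controls, a log2 difference of -0.20 (SE 0.22, 95% interval -0.66 to 0.26, adjusted p = 0.845 by edgeR). The NestinTK-GCV+ mice had 121, 67.5 and 56.6 CPM (G1 to G3). Their mean of 81.7 CPM was the lowest of the 4 groups here too, but their range overlapped that of the ablated mice. G1, the lowest mouse in the striatum, ranked among the higher mice in the SVZ, whereas G3 was the lowest of all 15 there. Over the 15 mice the SVZ and striatum levels of Igf1r had a Pearson correlation of 0.0213.

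Insr, the insulin receptor, differed in the striatum in the opposite sense to Igf1r between the GCV-treated groups. Ablated mice stood at 37.4, 31.6, 29.97, 27.5 and 27.3 CPM (A1 to A5), and the NestinTK-GCV+ mice 38.6, 39.8 and 47.2 (G1 to G3). All ablated values lay below all of these, as for 5.86% of genes, with a log2 difference of -0.45 (SE 0.19, 95% interval -0.85 to -0.049, unadjusted p = 0.0292, adjusted p = 0.218 by edgeR). It was -0.35 without G3 (unadjusted p = 0.129). The NestinTK-PBS+ mice had 27.2, 36.6 and 39.9 CPM and the NestinTK+PBS+ mice 35.9, 43.6, 41.6 and 23.8, and both overlapped the ablated mice. Against the pooled controls the log2 difference was -0.28 (SE 0.15, 95% interval -0.60 to 0.031, adjusted p = 0.541 by edgeR), and the exact two-sided permutation test over 3003 splits of the mice gave p = 0.0969. In the SVZ, Insr was lowest in the NestinTK-PBS+ mice (33.6, 31.8 and 24.02 CPM). All 3 NestinTK-GCV+ mice (34.3 to 70.6) and all 4 NestinTK+PBS+ mice (34.9 to 46.9) lay above them, as 5.11% and 2.89% of genes did in these comparisons, and neither difference passed (log2 0.71, adjusted p = 0.688, and log2 0.39, adjusted p = 1.00 by edgeR).

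Igf2r, the clearing receptor for IGF-2, was highest in the SVZ of the 3 libraries that held the most Igf2. P1 had 117 CPM, P2 76.8 and T1 63.6, while the other 12 libraries had 16.1 to 56.5. Its correlation with the choroid plexus sum was 0.797 over the 15 libraries and with Igf2 0.610. In the ablated mice Igf2r had 27.8, 52.3, 36.9, 25.4 and 39.5 CPM, within the range of the controls, and the log2 difference of -0.46 (SE 0.38, adjusted p = 0.758 by edgeR) became 0.062 without T1, P1 and P2. Airn, the noncoding antisense transcript that crosses Igf2r without sharing exon bases, had 142 of its 184 SVZ counts in P1. In the striatum Igf2r ran from 25.3 to 45.7 CPM, with a log2 difference of 0.094 (SE 0.15, adjusted p = 0.886 by edgeR).

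**Figure D5:**
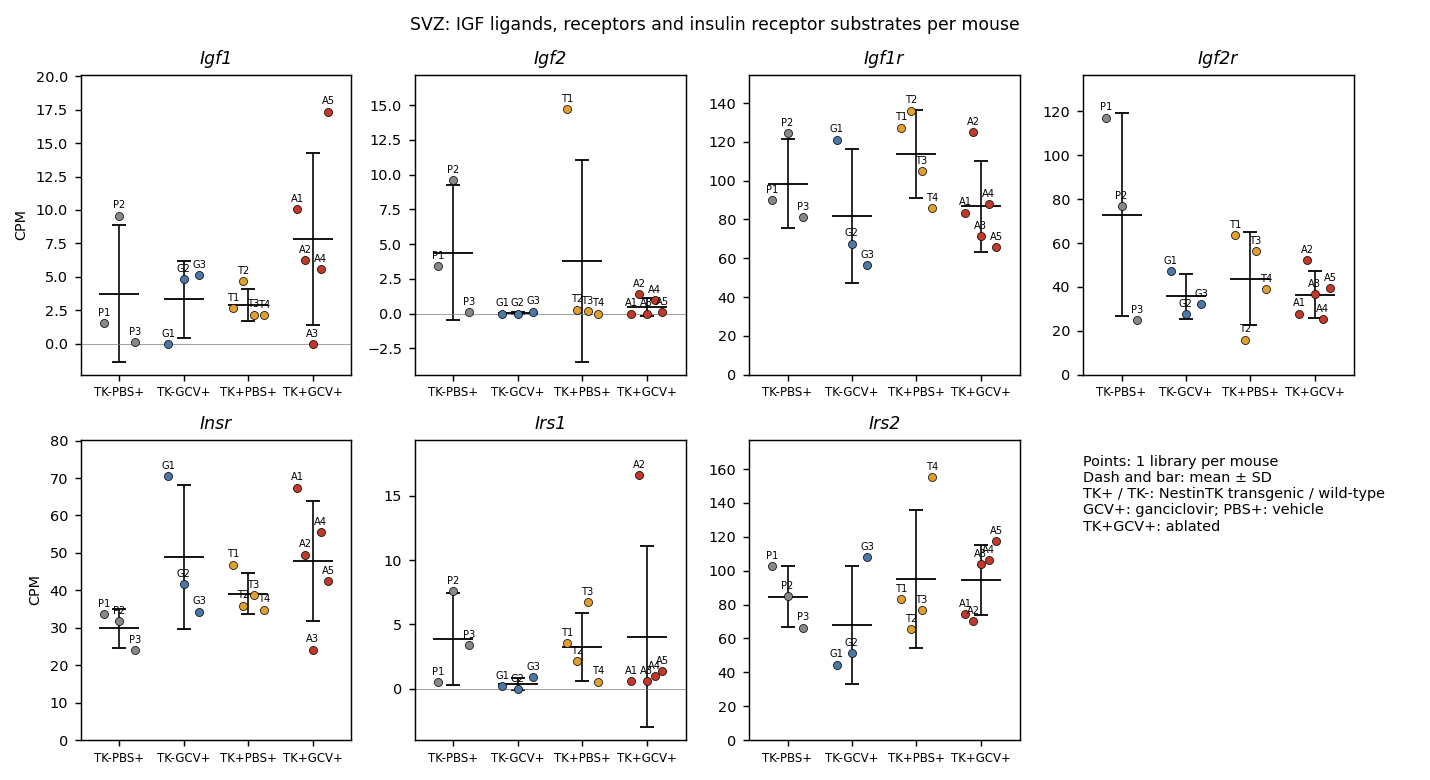
SVZ level in CPM of the 7 members for each mouse (points, named), with group mean and SD (dash and bar), in the 4 groups. Igf2 stands above 2 CPM in T1, P1 and P2 alone, and Irs1 of the ablated mice is highest in A2 (16.6) with the other 4 at 0.600 to 1.36.

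Of the substrates, Irs1 varied more between mice than Irs2. In the striatum the ablated mice had 7.05, 8.34, 4.07, 5.96 and 5.65 CPM of Irs1 (A1 to A5), the NestinTK-GCV+ mice 5.98, 4.50 and 8.97, the NestinTK-PBS+ mice 18.1, 6.76 and 8.23, and the NestinTK+PBS+ mice 7.35, 12.2, 6.09 and 28.0. T4 and P1 were the high values, and the remaining mice overlapped. Against the pooled controls the log2 difference of Irs1 was -0.76 (SE 0.37, 95% interval -1.53 to 0.0044, unadjusted p = 0.0512, adjusted p = 0.478 by edgeR). Within the transgenic mice, GCV against PBS, it was -1.10 (SE 0.40, unadjusted p = 0.0110, adjusted p = 0.303 by edgeR), just short of the call, and was -0.43 (unadjusted p = 0.254) without T4. Within the wild-type mice, GCV against PBS, it was -0.76 (SE 0.48, unadjusted p = 0.126 by edgeR). Under GCV, transgenic against wild-type mice gave -0.067 (SE 0.45, unadjusted p = 0.884 by edgeR). The interaction was -0.34 (SE 0.62, unadjusted p = 0.586 by edgeR). Over the 15 libraries Irs1 had correlations of 0.800 with the summed oligodendrocyte and 0.749 with the summed choroid plexus markers, and T4 and P1 had oligodendrocyte sums of 5530 and 4225 CPM against 1950 to 4448 in the others. The part of these cells in the difference was not tested.

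In the SVZ Irs1 was near the limit of detection in most mice. Ablated mice had 5, 119, 5, 9 and 11 counts (A1 to A5), with A2 at 16.6 CPM and the other 4 at 0.600 to 1.36, and the controls ran from 0 to 158 counts. The log2 difference of 0.64 (SE 1.12, adjusted p = 0.924 by edgeR) turned to -1.53 without A2. The SVZ of A2 had the lowest medium spiny neuron sum (3025 CPM) and the highest astrocyte (4876 CPM), endothelial (373 CPM) and mural (196 CPM) sums. Its cortical excitatory neuron sum (528 CPM) was exceeded only in G3 (615 CPM). G3 had 3841 CPM of medium spiny neuron markers and 12 counts of Irs1. The correlation of Irs1 over the 15 libraries was 0.629 with the meningeal fibroblast, 0.477 with the endothelial and 0.325 with the mural sum. It was 0.0225 with the astrocyte, -0.396 with the medium spiny neuron and 0.0672 with the cortical excitatory neuron sum. The part of tissue composition in the Irs1 level of A2 was not tested.

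Irs2 had 70.3 to 117 CPM in the ablated SVZ and 44.5 to 155 in the control SVZ, with a log2 difference of 0.17 (SE 0.25, 95% interval -0.35 to 0.69, adjusted p = 0.901 by edgeR). In the striatum it had 52.5 to 69.1 CPM in the ablated mice and 46.9 to 128 in the controls, with a difference of -0.25 (SE 0.17, adjusted p = 0.656 by edgeR) that was -0.11 without T4. T4 had the highest Irs2 of all mice in both tissues, 155 CPM in the SVZ and 128 in the striatum.

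Across the comparisons of single groups, 70 member comparisons were made over both tissues. By edgeR none was called and the lowest adjusted p was 0.0882, and 5 had an unadjusted p under 0.05: SVZ Igf2 for GCV in wild-type mice and, in the striatum, Igf1r for GCV in wild-type mice and for the transgene under GCV, Insr for the latter and Irs1 for GCV in transgenic mice. In the SVZ the shares of all genes called were 1.19% for GCV in transgenic mice, 0.94% for the transgene under GCV, 1.06% for GCV in wild-type mice, 0.195% for the transgene under PBS and 0.837% for the interaction. In the striatum they were 1.35%, 2.1%, 2.46%, 0.83% and 3.28% in the same order. The shares under an unadjusted p of 0.05 were 7.13%, 7.45%, 7.65%, 2.69% and 5.09% in the SVZ and 10.1%, 17.7%, 16.1%, 6.41% and 15.1% in the striatum. DESeq2 called 1 of the 70, striatal Irs1 for GCV in transgenic mice, and limma-voom called 0.

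The ablation difference was also compared between tissues within each mouse, as striatum minus SVZ log2 CPM, by the exact two-sided permutation test over 3003 splits. No member had a p under 0.05, where 10.6% of the 14197 genes tested in both tissues did. Insr came nearest, with a difference between tissues of -0.52 (exact permutation p = 0.0769, adjusted p = 0.520), followed by Irs2 with -0.43 (exact p = 0.111, adjusted p = 0.579), both with the lower ablation difference in the striatum. Leaving out A3 brought Insr to -0.74 (exact permutation p = 0.0140) and Igf1 to -2.26 (exact p = 0.0380).

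Around the members, genes called in ablated against control mice were found among the proteins that bind IGFs outside the cell, in the SVZ. Of 13 genes of IGF binding and release, a list chosen with earlier results of these data known, 10 were tested in the SVZ. Of these, 3 were called lower, where 1.59% of all genes tested were called in either direction. In all, 7 of the 10 lay lower, as did 51.9% of all genes, with a median log2 difference over the 10 of -0.56 against -0.027 for all genes. Igfbpl1, a secreted IGF-binding-like protein, is among the main genes that the study reported as lowered in these SVZ data. It had 0 to 0.245 CPM in the ablated mice and 0.661 to 35.0 in the controls (log2 -7.03, SE 1.18, adjusted p = 0.0710 by edgeR), a separation downward that 0.147% of genes showed. Igfbp5 had 36.8 to 89.7 CPM against 52.1 to 268 (log2 -1.12, SE 0.36, adjusted p = 0.373 by edgeR). Igfbp2 had 1.20 to 17.4 CPM against 0.110 to 540 (log2 -3.98, SE 1.39, adjusted p = 0.385 by edgeR). Its control mean was 149 CPM but its control median 15.4, against an ablated median of 7.16. The highest control was T1, a library with many choroid plexus markers, and their part in this difference was not tested. In the striatum 10 were tested and 0 called, 4 lay lower where 49.5% of all genes did, with 2 lower and 1 higher at an unadjusted p under 0.05. Igfbp5 there had the lowest p, with 21.8 to 37.4 CPM in ablated and 33.5 to 61.1 in control mice (log2 -0.56, SE 0.16, unadjusted p = 0.00164, adjusted p = 0.155 by edgeR), and Igfbp3 was the 1 on the higher side (log2 0.80, unadjusted p = 0.0482, adjusted p = 0.471 by edgeR).

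Of 26 genes of the PI3K-AKT arm, all were tested and 0 called in either tissue by edgeR. In the SVZ 10 lay lower, the median log2 difference was 0.027, and those of lowest p were Pik3ca, the catalytic subunit p110 alpha, at -0.67 (unadjusted p = 0.0144, adjusted p = 0.386 by edgeR) and Foxo3, a transcription factor that AKT holds out of the nucleus, at 0.57 (unadjusted p = 0.00484, adjusted p = 0.357 by edgeR). In the striatum 15 lay lower with a median of -0.051, led by Foxo4 at -0.51 (unadjusted p = 0.0151, adjusted p = 0.345 by edgeR), and 0 on the higher side had an unadjusted p under 0.05, the nearest being Rheb, the GTPase that activates mTOR, at 0.17 (unadjusted p = 0.519). For the 17 genes of the RAS-MAPK arm 0 were called, 5 lay lower in the SVZ and 8 in the striatum, and in the striatum Map2k1, the kinase MEK1, was at 0.58 (unadjusted p = 0.00748, adjusted p = 0.280 by edgeR), and 2 genes had an unadjusted p under 0.05, both higher. The lowest p on the lower side was that of Sos2, a RAS exchange factor, at -0.29 (unadjusted p = 0.0534). In the SVZ the RAS-MAPK genes of lowest p were Gab1 at -0.71 and Shc3 at 1.16 (adjusted p = 0.664 and 0.529 by edgeR).

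Of 11 receptor adaptors and brakes 0 were called and 6 lay lower in each tissue, with a median of -0.0043 in the SVZ and -0.083 in the striatum. Grb14, an adaptor that binds the activated insulin receptor and dampens it, had the lowest p in the striatum. Its 5 ablated values, 14.8 to 25.9 CPM, lay below the 10 control values of 26.2 to 49.9, a separation downward that 0.253% of genes showed, with a log2 difference of -0.62 (SE 0.18, unadjusted p = 0.00204, adjusted p = 0.170 by edgeR). In the SVZ Grb14 overlapped, with 14.7 to 33.5 against 12.3 to 44.9 CPM. The related Grb10 was at 0.27 in the striatum (adjusted p = 0.582 by edgeR). In the SVZ the adaptors and brakes of lowest p were Enpp1 at -1.67 and Socs3, a feedback inhibitor of cytokine and insulin receptors, at 2.53 (adjusted p = 0.790 and 0.595 by edgeR). Among the remaining insulin family genes, Ins1, Insrr and Irs3 had at most 2 counts in any library and Irs4 at most 15, with a log2 difference of 0.48 in the striatum (adjusted p = 0.899 by edgeR). Of 5 imprinted neighbours of Igf2 and Igf2r 1 was tested in each tissue, Slc22a3, at 1.16 in the SVZ and -0.45 in the striatum (adjusted p = 0.781 and 0.426 by edgeR). The SVZ value was carried by A3 with 54.8 CPM, since the ablated median of 1.26 CPM lay below the control median of 3.82, and H19 had at most 1 count.

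The genes whose log2 CPM ran most like a member's over the 15 libraries of a tissue are given as a description, since these points share depth and composition. For SVZ Igf2 they were Abca4 (r = 0.944), Scara5 (0.927) and Npr1 (0.925), and for SVZ Igf2r Eps8l2 (0.873), Slc25a39 (0.866) and Slco1c1 (0.841). For striatal Igf1r they were Arl2bp (0.949), Ttc21b (0.914) and Hus1 (0.899), for striatal Irs1 Rassf4 (0.919), Dlc1 (0.911) and Gatad2a (0.893), and for striatal Insr Ctsa (0.876) and Srr (0.831). The nearest gene to the other SVZ members was Zmat3 for Igf1 (0.866), Ropn1l for Igf1r (0.916), Dmrtc1a for Insr (0.849), Gm42770 for Irs1 (0.831) and Zkscan6 for Irs2 (0.864). In the striatum it was Nsfl1c for Igf1 (0.872), Tubb2a for Igf2 (0.901), Cfl1 for Igf2r (0.876) and Nr2f6 for Irs2 (0.864). Between members, the strongest striatal correlations were Irs1 with Irs2 (0.636) and Igf1r with Irs1 (0.601), and T4 was highest for all 3 genes. Between tissues of the same mouse, Pearson's r ran from -0.0518 for Igf1 to 0.299 for Irs2 and Spearman's rho from -0.32 for Igf1 to 0.125 for Igf2r.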

How the data were processed

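RNA-seq of SVZ and striatum was analysed in 15 mice grouped by genotype and treatment from the labels. The authors deposited raw read counts per gene, 1 table per tissue, not normalized. Per the methods and labels, SVZ libraries used SMART-Seq v4 and striatum libraries QuantSeq 3′ FWD, reads were trimmed with Trimmomatic (0.36 in the labels), aligned to mm10 with STAR 2.5.3a and counted with featureCounts on Gencode M16; the strand setting was not given in the sources used here. Different kits mean that levels were not compared between tissues. Gene positions, exon lengths and overlaps were taken from a later Gencode release than that of the counts. Counts were fitted per tissue with edgeR 4.0.16 (R 4.3.3, TMM, quasi-likelihood test, genes above 1 CPM in at least 3 libraries, Benjamini-Hochberg over all genes tested), once as ablated against pooled controls and once with 4 group means. The study used limma; DESeq2 1.42.0 and limma-voom 3.58.1 were alternatives. CPM are per 1000000 counts of the TMM-scaled library, and log2 CPM used a prior count of 2. p-values measure spread between mice, and intervals on counts cover counting error only. On simulated counts for ablated against controls, 4-fold changes were called for 61.1% of 193 genes tested in the SVZ (16375 genes) and 99% of 200 in the striatum (15419 genes).

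Named genes were the members, those called in each list or else the lowest p in each direction, and the 3 genes most like a member; of the latter all 3 are printed for 4 cases, 2 for striatal Insr, where 1 gene is not reported here, and the first for the other 9. The members and lists were chosen with earlier results of these data known. Replicate numbers follow accession order and pair nothing within a tissue. No 2 replicate libraries agreed within sampling noise.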

Additional observations from a re-analysis of the deposited data

Results flagged for a closer look

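Within groups of 4 or 5 libraries, 28 member and group combinations were checked for a library far from the rest, by its gap to the nearest other library as a share of the group's range of log2 CPM, and 4 stood out where chance gives about 5% of them. In the striatum of the NestinTK+PBS+ mice, Igf1r in T4 stood apart with a gap of 0.954 of the range (log2 CPM 6.78 against 6.20 to 6.23), and Igf2r in T3 with 0.83 (5.53 against 5.06 to 5.14). In the ablated SVZ, Irs1 in A2 stood apart with 0.776 (4.07 against -0.38 to 0.615), and Igf1 in A3 with 0.759 (-2.57 against 2.52 to 4.13), the library at 0 counts.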

How the results depend on the processing

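Size factors, filter, test, weighting of controls, mouse number series, prior count, and leaving out mice were varied. The count of members called stayed at 0 in 25 of 28 such settings and became 1 in 3, all for Irs1 under GCV in transgenic striatum: without a filter, with DESeq2 and without the mice with SVZ Ttr above 1%. Leaving out 1 mouse gave 0 to 1 called among the single-group comparisons of the striatum (Irs1, without T1, T3 or P1) and 0 to 1 of the SVZ (Igf2r for GCV in wild-type mice, -1.44 without P3), 0 to 0 for ablated against controls in both tissues, and 0 to 2 members for the difference between tissues (Insr and Igf1 without A3, Insr without G1). Of 187 values of single members, 10 reversed: SVZ Igf2r against pooled controls (0.025 with the mouse number series, 0.062 without the Ttr-rich mice) and for GCV in wild-type mice (0.51 without them, which leaves P3 as the only mouse of its arm, assumed to vary like the other groups), striatal Igf2 (-0.19 with the series), and striatal Igf1r near 0 (0.0015 with RLE factors, 0.0014 with DESeq2, 0.023 with limma-voom, 0.032 with controls weighted equally, 0.00023 with the series, 0.058 without the Ttr-rich mice); the cause was not tested. Leaving out 1 mouse moved SVZ Irs1 from -1.53 to 0.99, striatal Igf2 from -0.093 to 0.33, striatal Igf1r from -0.056 to 0.068 and striatal Igf2r from -0.0068 to 0.19. SVZ Igf2 could not be fitted without the Ttr-rich mice, since it then failed the filter, and was -0.66 with limma-voom and -1.01 with controls weighted equally. Without length, Igf1r ranked above Irs2 and Irs1 above Igf2 in the SVZ. No paired analysis was possible because the groups compared within a tissue hold different mice. SVZ Igf1, Igf2 and Irs1 were at 0 counts in at least 1 library each, and SVZ libraries of like depth differed in them: Igf1 had 0 counts in A3 and 140 in A5.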
